A study of Mus musculus with 10 samples.

Results

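The 6 genes described here make up the endothelin system as it was listed for this study: the ligand genes Edn1, Edn2 and Edn3, the receptor genes Ednra and Ednrb, and Ece1, which encodes an endothelin-converting enzyme. They were listed by gene symbol, with earlier results of these data known, and each is represented by the transcript that the authors marked as representative of its gene. All 6 were found among the 18594 genes of the deposited count table, and they are described over 10 RNA sequencing libraries of mouse intestine in 4 groups.

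The study sequenced Foxl1 positive and Foxl1 negative cells sorted from intestinal mesenchyme, together with Lgr5 positive cells and differentiated epithelium. Foxl1 is a transcription factor of the mesenchymal cells that lie directly beneath the intestinal epithelium, called telocytes in the title of the study, and Lgr5 marks the stem cells at the crypt base. The Foxl1 positive group held 3 libraries of mixed strain background, with the genotype Foxl1Cre; Rosa-YFP in replicates 1 and 2 and Foxl1Cre; Rosa-mTmG in replicate 3. The Foxl1 negative group held 3 libraries of Foxl1Cre; Rosa-mTmG genotype and mixed background. The 2 Lgr5 positive libraries were of mixed background, with the genotype spelled Lr5-EGFP-IRES CreERT2 in the labels, replicate 1 being labelled male and replicate 2 female. The 2 libraries of differentiated epithelium came from wild type C57BL/6J mice. All mesenchymal libraries therefore carried Foxl1Cre, and a Rosa reporter that Cre has switched stays on in descendants, so the sort marks cells with a history of Cre activity as well as cells expressing Foxl1 at the time. The tissue label of all 10 libraries reads intestine mesenchyme, the epithelial ones included, and the labels name neither ages nor treatments. The design text names 3 mice for the mesenchymal sorts, but the labels tie no library to an animal, so the p-values measure the spread between these libraries, which may be technical.

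Endothelins are short secreted peptides cut from longer precursors, first by furin-type proteases and then by an endothelin-converting enzyme, which releases the active peptide. They act on G protein-coupled receptors that raise intracellular calcium and contract smooth muscle: Ednra prefers endothelin 1 and endothelin 2 over endothelin 3, whereas Ednrb binds all of them with similar strength. In the gut the system is best known for endothelin 3 and Ednrb, which neural crest cells need in order to colonise the bowel, and loss of either leaves the distal bowel without enteric ganglia. Edn2 was described in mouse as vasoactive intestinal contractor.

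The coding bases of the mature peptides are shown because they place the differences between the ligands whose levels are compared here. Each peptide was located by the spacing of its cysteines and last tryptophan in the GENCODE M21 transcript (build GRCm38) linked to the RefSeq identifier of the count table. It lies within exon 2 of 5, and each run holds 63 bases, or 21 codons, read 5′ to 3′ on the plus strand. Edn1 lies at chr13:42303649-42303711, Edn2 at chr4:120161951-120162013 and Edn3 at chr2:174761749-174761811. Capitals mark the 18 positions at which the 3 genes do not all carry the same base.
Edn1: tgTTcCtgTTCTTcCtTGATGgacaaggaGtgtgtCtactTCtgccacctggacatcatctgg
Edn2: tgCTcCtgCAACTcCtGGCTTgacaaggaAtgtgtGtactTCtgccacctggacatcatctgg
Edn3: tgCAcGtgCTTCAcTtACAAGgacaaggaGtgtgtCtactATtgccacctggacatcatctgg
The differences are concentrated in the first part of the peptide, and the last stretch, which encodes the tail common to endothelins, is the same in each gene. Edn1 and Edn2 share 53 of 63 bases and 18 of 21 residues. Edn3 stands further off, sharing 50 bases with Edn1 and 48 with Edn2, and 15 residues with either.

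Total counts ranged from 1311205 in Foxl1 negative replicate 1 to 99628145 in Lgr5 positive replicate 2. Foxl1 positive libraries held counts for 14332 to 14817 genes and the epithelial libraries for 15397 to 16237, whereas the Foxl1 negative libraries held counts for 1992, 4097 and 5966 genes. Of 1413 genes that reached 40 CPM (counts scaled to library size) in all 7 libraries outside that group, 70.0%, 43.4% and 28.2% had no count in Foxl1 negative replicates 1, 2 and 3, and 15.5% had none in any of them. Among the 306 genes that reached 100 CPM in all 7, these shares were 54.6%, 27.5% and 11.1%, and 4.25% had none in any. Many genes expressed in the other groups thus had no count in single Foxl1 negative libraries, and fewer had none in the whole group. All Foxl1 negative libraries came from 1 sequencing lane and each other library from a lane of its own, so lane and group cannot be told apart. The Foxl1 mesenchyme markers (Foxl1, Pdgfra, Gli1, Bmp5, Wnt5a and Dll1) all had counts in each Foxl1 positive library, although Foxl1 itself stood at 0.157 CPM in replicate 1 against 31.8 and 11.9 in replicates 2 and 3. In each Foxl1 negative library only 1 of these 6 markers, Pdgfra, had a count. Fibroblast markers summed to 6067 to 12100 CPM there, with 3 to 6 of 6 counted, and enterocyte markers, which belong to epithelium, to 1313 to 17620 CPM with 5 or 6 of 6 counted. Erythroid markers reached 10250 CPM in replicate 1 and B cell markers 2602 CPM in replicate 3, so this group held transcripts of several cell types.

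Both receptor genes were counted in the Foxl1 positive libraries and, apart from 2 reads, in no other library. Ece1 and Edn3 were measured in the Foxl1 positive cells and in both epithelial groups. Edn1 was low in every group and highest in Lgr5 positive cells, and Edn2 was highest in differentiated epithelium. In bulk libraries, fewer cells of a type and less RNA per cell cannot be told apart. Levels are given as CPM scaled over all 10 libraries by the trimmed mean of M values (TMM), and levels of different genes are compared only as the deposited FPKM, which divides by transcript length.

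**Figure D1:**
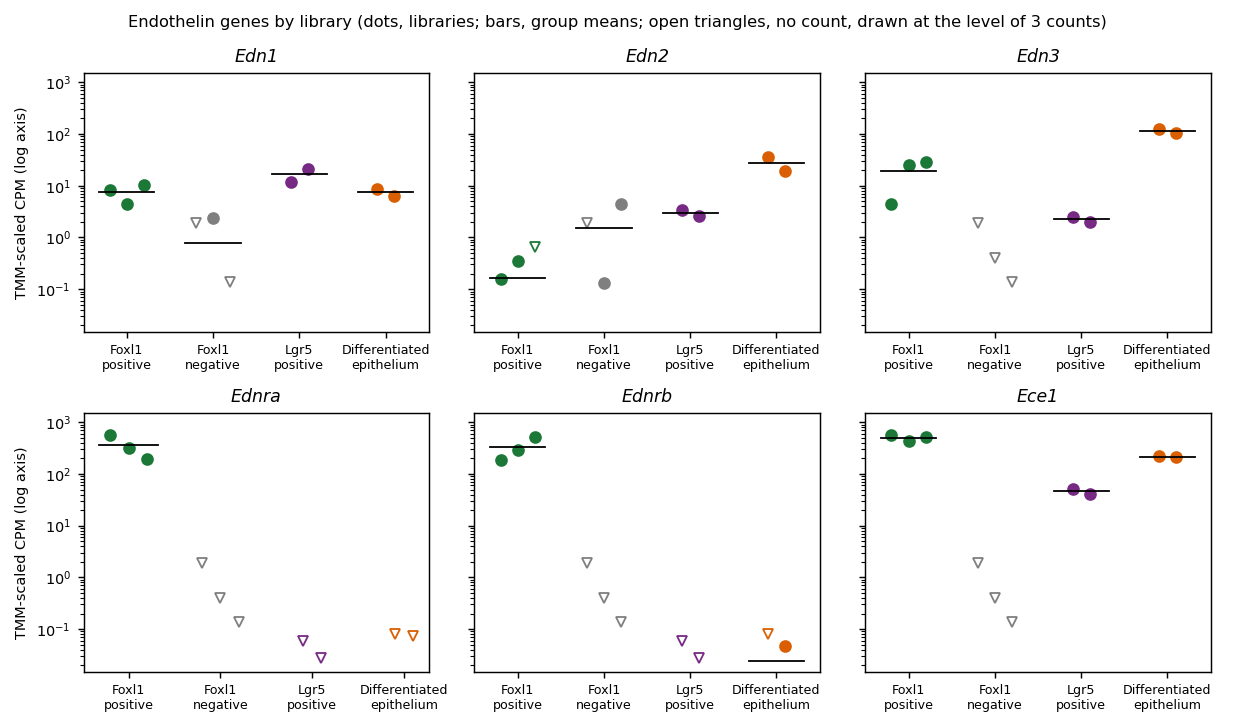
Level of each endothelin gene in each library, in TMM-scaled CPM on a log axis, with dots for libraries, bars for group means and open triangles for libraries without a count, drawn at the level that 3 counts would give. Ednra and Ednrb have dots at 194 to 576 and 185 to 527 CPM in the Foxl1 positive group and open triangles elsewhere, apart from the single dot of Ednrb in differentiated epithelium.

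Ednra, the receptor that mediates contraction of smooth muscle, spans chr8:80186928-80248351 on the minus strand (mm9). It had 7317, 2771 and 901 counts in Foxl1 positive replicates 1, 2 and 3, which is 576, 319 and 194 CPM (363 ± 195 CPM, SD, n = 3). It had no count in any of the 7 other libraries, of which the deepest held 99628145 counts in all. The groups did not overlap, and the mean of the Foxl1 positive libraries was at least 3772-fold higher than that of the Foxl1 negative ones, at least 19270-fold higher than that of Lgr5 positive cells and at least 9591-fold higher than that of differentiated epithelium. These bounds set the mean against 3 counts over the whole lower group, account for counting error alone, and require that its libraries have a common level. In Foxl1 negative replicate 1 alone, 3 counts correspond to 1.92 CPM. The bounds also rest on the deeper libraries: they fall to 1108-fold without Foxl1 negative replicate 3, to 6100-fold without Lgr5 positive replicate 2, and to 5030-fold or 4561-fold without replicate 1 or 2 of differentiated epithelium.

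Ednrb, the receptor of the enteric neural crest and of endothelium, spans chr14:104213843-104242913 on the minus strand. Its counts were 2357, 2571 and 2444 in Foxl1 positive replicates 1 to 3, or 185, 296 and 527 CPM (336 ± 175 CPM, SD, n = 3). It had no count in the Foxl1 negative and Lgr5 positive libraries or in replicate 1 of differentiated epithelium, and 2 counts, or 0.0481 CPM, in replicate 2. The Foxl1 positive libraries stood apart from all others, with a mean at least 3494-fold above Foxl1 negative and at least 17850-fold above Lgr5 positive cells (1027-fold without Foxl1 negative replicate 3 and 5650-fold without Lgr5 positive replicate 2). A second Ednrb transcript in the table, NM_001136061, overlaps the representative NM_007904 along nearly its whole length and had 2353, 2571 and 2440 counts, so the table does not separate the isoforms.

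The edgeR quasi-likelihood fits of the receptors, with Benjamini-Hochberg adjustment over all genes tested, describe these differences, because both genes passed the filter on low counts only through the libraries in which they were high. Against Foxl1 negative cells the call adds nothing to the counts, since each of the 4028 genes tested that had no count in that group was called higher in Foxl1 positive cells. Of genes without a count in the second group, 33.8% of 553 were called higher against Lgr5 positive cells and 52.2% of 402 against differentiated epithelium. Over all genes tested, the shares called higher in the 3 comparisons were 42.2%, 4.84% and 10.6%. Both receptors were called in each of them. Against Foxl1 negative cells the fitted log2 differences were 15.1 ± 3.05 (SE) for Ednra and 14.9 ± 3.05 for Ednrb, with adjusted p of 0.0124 and 0.0126. Both calls were lost with the replicate number as a block (adjusted p = 0.0914 for each), which called none of the 11204 genes tested. Against Lgr5 positive cells the fitted differences were 16.9 ± 1.54 and 16.7 ± 1.37, with adjusted p of 0.0156 and 0.0150. Against differentiated epithelium they were 16.03 ± 1.59 and 13.5 ± 1.53, with adjusted p of 0.0122 for each. These fitted values depend on the small count that the model adds to groups at or near 0 and are not bounds. The 3 comparisons share the Foxl1 positive libraries and are not independent of one another. With all 10 libraries in 1 fit, in which the 4 groups share 1 estimate of the spread, neither receptor was called against Lgr5 positive cells (adjusted p up to 0.144 over the alternatives) or against differentiated epithelium (up to 0.129). That fit called none of the 14683 genes tested in either comparison, so the loss is not particular to the receptors. Leaving out Foxl1 positive replicate 1 or 2 also ended the calls against Lgr5 positive cells, again for every gene tested. Leaving out 1 library of an epithelial group leaves 1 library in it, and the calls against that group then ended for all genes alike. The 0 counts themselves do not change.

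Within the Foxl1 positive group the receptors were unequal from library to library. On the length-adjusted FPKM scale Ednra stood at 43.8, 23.8 and 22.2 in replicates 1, 2 and 3, and Ednrb at 12.9, 20.2 and 54.9. The ratio of Ednra to Ednrb was 3.40 in replicate 1, 1.18 in replicate 2 and 0.404 in replicate 3, so either receptor was the more abundant transcript depending on the library. Replicate 3, the single library with the Rosa-mTmG reporter, held the lowest ratio, and with 1 such library the reporter and the library cannot be told apart. Markers of other mesenchymal and vascular cells also differed between these libraries. Over replicates 1, 2 and 3, fibroblast markers summed to 6187, 2984 and 74780 CPM with 6 of 6 counted in each. Smooth muscle markers summed to 1330, 362 and 8358 CPM (6 of 6), pericyte markers to 936, 623 and 1360 CPM (5 of 5), and endothelial markers to 131, 194 and 1205 CPM (7 or 8 of 8). Ednrb was highest in the library in which these sums were highest, and Ednra was lowest there. The part of those cells in the receptor levels was not tested. Of the enteric glia and neuron markers, S100b and Gfap had no count in the Foxl1 positive libraries, and Sox10 stood at 0, 1.15 and 1.73 CPM, against an Ednrb level above 100 CPM in each.

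**Figure D2:**
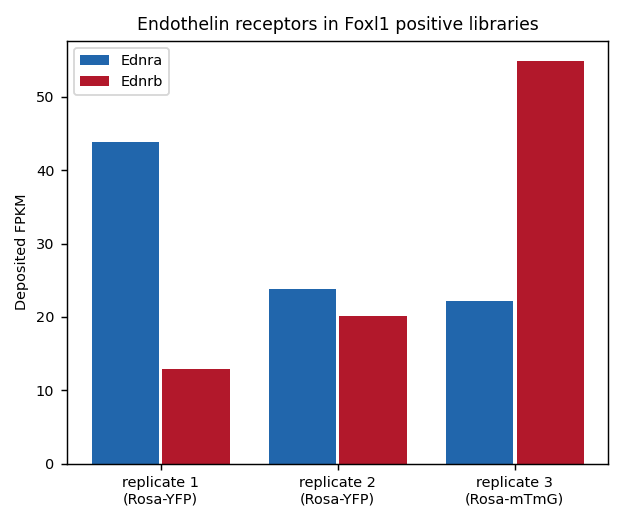
Deposited FPKM of Ednra and Ednrb in each Foxl1 positive library, with 1 bar per receptor and library and no error bars because each bar is a single library. Ednra is the taller bar in replicate 1 (43.8 against 12.9) and Ednrb in replicate 3 (54.9 against 22.2).

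Edn3, the ligand that acts through Ednrb in the developing bowel, spans chr2:174586274-174609543 on the plus strand. It was highest in differentiated epithelium, at 124 and 105 CPM (114 ± 13.1 CPM, SD, n = 2). Foxl1 positive replicates 1, 2 and 3 held 4.49, 24.6 and 28.7 CPM (19.3 ± 13.0 CPM, n = 3), from 57, 214 and 133 counts. The Lgr5 positive libraries held 2.46 and 2.02 CPM (2.24 ± 0.311 CPM, n = 2), and no Foxl1 negative library had a count. In order of level, differentiated epithelium stood above Foxl1 positive cells, these above Lgr5 positive cells, and these above Foxl1 negative cells, with no overlap between neighbours. The step from Lgr5 positive cells to differentiated epithelium was 51.0-fold in mean CPM, a log2 difference of -5.68 ± 0.35 (Lgr5 positive minus differentiated) with an adjusted p of 1.75e-05 (edgeR). The 5.92-fold lower mean of Foxl1 positive cells than of differentiated epithelium missed the threshold in edgeR (log2 difference -2.48 ± 0.83, adjusted p = 0.0795, range over the alternatives 0.0245 to 0.387), as did the 8.60-fold higher mean than in Lgr5 positive cells, which was 4.86-fold in the deposited FPKM (3.22 ± 1.21, adjusted p = 0.148, range 0.00615 to 0.660). DESeq2 called both of these, with adjusted p of 0.0245 and 0.00615, and so did a fit of the 7 libraries outside the Foxl1 negative group. Against Foxl1 negative cells Edn3 was called higher in Foxl1 positive cells (adjusted p = 0.0116, at least 200.3-fold, or 58.8-fold without Foxl1 negative replicate 3). Each gene tested without a count in that group was called, so the call adds nothing to the counts. It was lost by limma on log2(FPKM + 1), with an adjusted p of 0.0813 and, unfiltered, of 0.1005, and with the replicate block (0.0914), which called no gene.

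Epithelial transcripts were present in the Foxl1 positive libraries, so Edn3 was set beside them. Relative to the mean of differentiated epithelium, the summed epithelial markers stood at 12.1%, 13.2% and 0.772% in Foxl1 positive replicates 1, 2 and 3, and the summed enterocyte markers at 1.19%, 4.28% and 0.0414%. Edn3 stood at 3.93%, 21.6% and 25.1% in the same libraries. In replicate 1 its share lay below that of the epithelial markers, and in replicates 2 and 3 above both marker sums. The Edn3 level was highest in replicate 3, the library in which epithelial markers were lowest, with Epcam at 41.4 CPM against 661 and 634 in replicates 1 and 2. The part of epithelial cells in the Edn3 level was not tested.

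**Figure D3:**
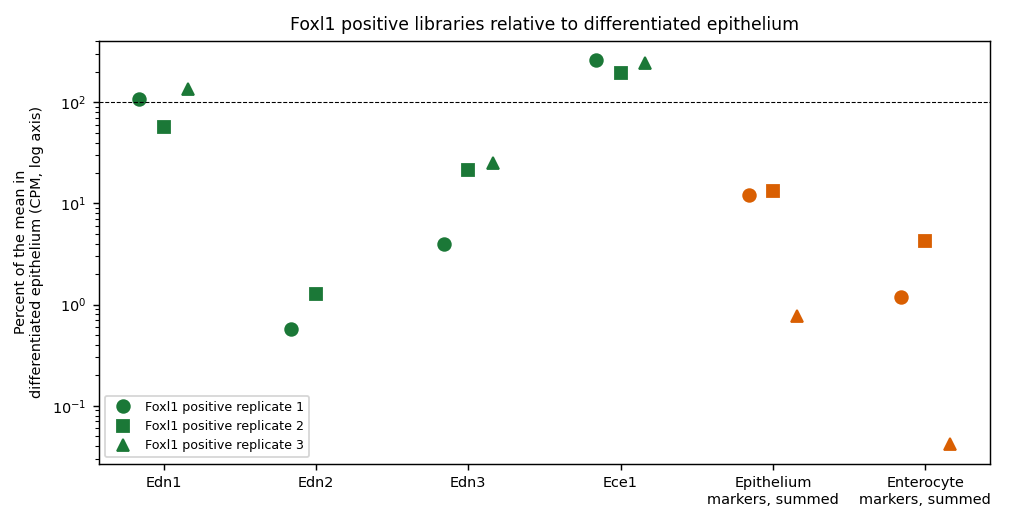
Level in each Foxl1 positive library as a percentage of the mean in differentiated epithelium (CPM, log axis), with green points for the ligand genes and Ece1, orange points for summed marker lists, and a dashed line at 100%. The triangle of Edn3 (replicate 3, 25.1%) lies well above those of the epithelial and enterocyte markers (0.772% and 0.0414%), while the circle of Edn3 (replicate 1, 3.93%) lies below that of the epithelial markers (12.1%). The 0 of Edn2 in replicate 3 is not drawn.

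Edn2, which encodes the vasoactive intestinal contractor peptide, spans chr4:119834029-119839965 on the plus strand. It was highest in differentiated epithelium, at 35.4 and 19.4 CPM (27.4 ± 11.3 CPM, SD, n = 2), and lower in the Lgr5 positive libraries at 3.43 and 2.62 CPM (3.03 ± 0.576 CPM, n = 2). The Foxl1 positive libraries held 2, 3 and 0 counts, or 0.157, 0.345 and 0 CPM, and the Foxl1 negative libraries 0, 1 and 97 counts, or 0, 0.132 and 4.41 CPM. The 2 epithelial groups did not overlap, whereas the Foxl1 negative range, which rests on replicate 3, covered the Lgr5 positive values and overlapped the Foxl1 positive range. Edn2 was 9.05-fold higher in differentiated epithelium than in Lgr5 positive cells (log2 difference -3.19 ± 0.44 as Lgr5 positive minus differentiated, adjusted p = 0.000348, edgeR). Against Foxl1 positive cells, with 5 counts in all, the ratio of mean CPM was 163, which ranged from 109 to 348 on leaving out 1 library and was 246 in the deposited FPKM (log2 difference -7.04 ± 1.30 as Foxl1 positive minus differentiated, adjusted p = 0.0228, edgeR). Edn2 passed the filter there only through differentiated epithelium, so this fit describes the difference. The value of 348 is that without Foxl1 positive replicate 2 and 109 that without replicate 3. The call was lost with all 10 libraries in 1 edgeR fit (adjusted p = 0.126), in which no gene was called in that comparison. It was also lost, with the calls of all other genes, without either library of differentiated epithelium, which leaves 1 library in that group. The difference between Foxl1 positive and Lgr5 positive cells was not called (-3.87 ± 1.64, adjusted p = 0.190, range over the alternatives 0.0306 to 0.803). Between Foxl1 positive and Foxl1 negative cells Edn2 had too few counts to pass the filter and was not tested.

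Edn1, the vasoconstrictor ligand best known from endothelium, spans chr13:42396639-42403358 on the plus strand. The Lgr5 positive libraries held 12 and 21.4 CPM (16.7 ± 6.62 CPM, SD, n = 2). Foxl1 positive replicates 1, 2 and 3 held 8.26, 4.38 and 10.4 CPM (7.67 ± 3.04 CPM, n = 3), and differentiated epithelium held 8.81 and 6.40 CPM (7.61 ± 1.70 CPM, n = 2). Foxl1 negative replicate 2 held 2.37 CPM from 18 counts, and the other 2 libraries of that group had none. The Lgr5 positive values lay above all others, and the Foxl1 positive and differentiated ranges overlapped. The 2.20-fold difference between Lgr5 positive cells and differentiated epithelium was called (log2 difference 1.13 ± 0.41, adjusted p = 0.0392, edgeR, range over the alternatives 0.00171 to 0.885). That call ended without Lgr5 positive replicate 2 (adjusted p = 0.330), without differentiated epithelium replicate 2 (0.130) and with median-of-ratios scaling (0.0551). The 3.89 ± 1.78 log2 difference between Foxl1 positive and Foxl1 negative cells was not called (adjusted p = 0.142, range 0.0100 to 0.300), nor was the -0.98 ± 0.94 difference from Lgr5 positive cells (adjusted p = 0.562). Between Foxl1 positive cells and differentiated epithelium the log2 difference was 0.12 ± 0.97 (adjusted p = 0.935), and its sign changed under other scalings.

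The make-up of the ligand transcripts differed between groups on the length-adjusted FPKM scale. Edn1 held 58.8% and 76.6% of the summed ligand FPKM in the Lgr5 positive libraries, where Edn3 held 9.53% and 5.73%. In differentiated epithelium the order was turned, with Edn3 at 56.4% and 65.9%, Edn2 at 38.5% and 29.0% and Edn1 at 5.09% and 5.08%. In Foxl1 positive cells Edn3 held 29.3%, 79.5% and 68.7% in replicates 1, 2 and 3, Edn1 68.3%, 17.8% and 31.3%, and Edn2 at most 2.65%. Edn3 was thus the leading ligand in 2 of the 3 Foxl1 positive libraries and Edn1 in the other. The summed ligand FPKM was 29.9 and 22.7 in differentiated epithelium, 5.26 and 7.30 in Lgr5 positive cells and 1.43, 2.85 and 5.86 in Foxl1 positive cells. Summed receptor FPKM in those Foxl1 positive libraries was 56.7, 44.0 and 77.0, which is 39.6, 15.5 and 13.2 times their ligand sum. Ligand transcripts therefore stood highest in differentiated epithelium, and the receptor transcripts in the Foxl1 positive libraries.

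**Figure D4:**
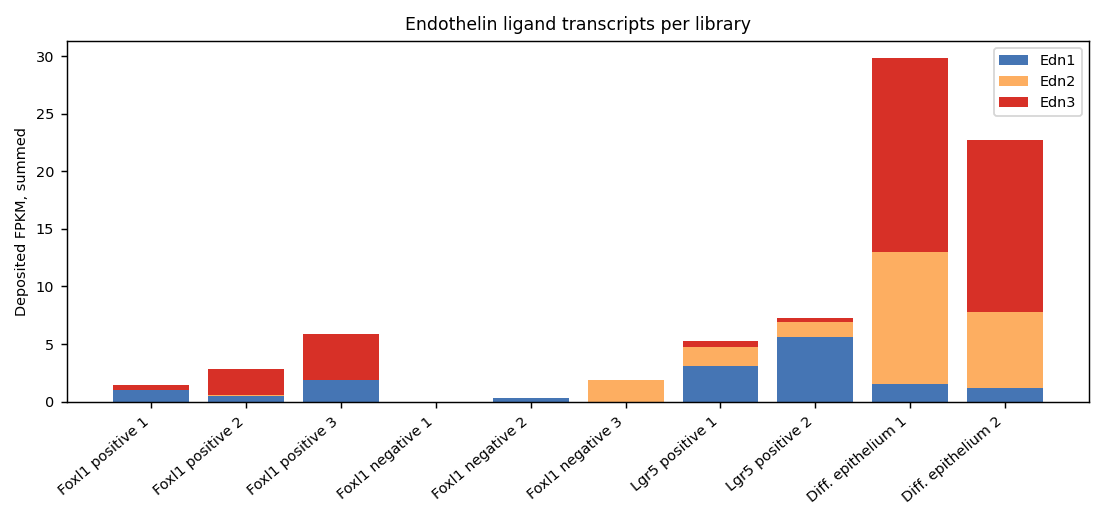
Deposited FPKM of Edn1, Edn2 and Edn3 stacked for each library, without error bars because each bar is a single library. The bars of differentiated epithelium are the tallest (29.9 and 22.7) and mostly Edn3 and Edn2, the Lgr5 positive bars are mostly Edn1, and Foxl1 negative replicate 1 has no bar because no ligand had a count.

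Ece1, whose product cuts the inactive precursor peptide into the active endothelin, spans chr4:137418152-137521144 on the plus strand. Its highest values were in the Foxl1 positive libraries, with 567, 426 and 529 CPM in replicates 1 to 3 (508 ± 73.0 CPM, SD, n = 3). Differentiated epithelium held 224 and 209 CPM (217 ± 11.01 CPM, n = 2) and the Lgr5 positive libraries 51.5 and 40.7 CPM (46.1 ± 7.64 CPM, n = 2), while no Foxl1 negative library had a count. No groups overlapped. Foxl1 positive cells exceeded Lgr5 positive cells 11.01-fold in mean CPM (log2 difference 3.61 ± 0.66, adjusted p = 0.0339, edgeR, range over the alternatives 5.78e-11 to 0.432), and differentiated epithelium exceeded Lgr5 positive cells 4.70-fold (log2 difference -2.24 ± 0.29 as Lgr5 positive minus differentiated, adjusted p = 0.000279). The first of these calls was lost with all 10 libraries in 1 edgeR fit (adjusted p = 0.288) and without Foxl1 positive replicate 1 (0.0867) or replicate 2 (0.0854). No gene was called in that comparison in these settings. The call was also lost, with those of all other genes, without either Lgr5 positive library, which leaves 1 library in that group. The fold of Foxl1 positive over Lgr5 positive cells was 5.86 in the deposited FPKM, which scale the libraries differently. The 2.34-fold difference between Foxl1 positive cells and differentiated epithelium was not called (1.36 ± 0.64, adjusted p = 0.160), although the libraries did not overlap. Ece1 was called higher in Foxl1 positive than in Foxl1 negative cells (adjusted p = 0.0116, at least 5272-fold, or 1549-fold without Foxl1 negative replicate 3), except with the replicate block (0.0914), and it was one of the genes well expressed elsewhere that had no count in that group. Relative to differentiated epithelium Ece1 stood at 262%, 197% and 244% in Foxl1 positive replicates 1 to 3, above the share of the epithelial markers in each library.

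Between Foxl1 positive and Foxl1 negative cells 4 of the 5 genes tested (Edn3, Ednra, Ednrb and Ece1) were called higher, where 42.2% of the 11204 genes tested were. All 4 are among the genes without a count in the Foxl1 negative group, each of which was called higher. Against Lgr5 positive cells 3 of 6 (Ednra, Ednrb and Ece1) were called higher, where 4.84% of all genes tested were. Against differentiated epithelium 2 of 6 (Ednra and Ednrb) were called higher, where 10.6% of all genes tested were, and 1 of 6 (Edn2) lower, where 7.19% were. Among genes without a count in the second group, 33.8% were called higher against Lgr5 positive cells and 52.2% against differentiated epithelium. The receptors passed the filter only through the Foxl1 positive libraries, and Edn2 only through differentiated epithelium, so these calls describe the difference. Between the epithelial groups 1 of the 4 genes tested (Edn1) was called higher in Lgr5 positive cells, where 34.4% were, and 3 of 4 (Edn2, Edn3 and Ece1) lower, where 31.9% were. In Foxl1 negative cells 2 of the 4 tested (Edn3 and Ece1) were called lower than in Lgr5 positive cells, where 47.3% were. The same 2 of 4 were called lower than in differentiated epithelium, where 42.1% were. Neither gene had a count in Foxl1 negative cells, and both passed the filter only through the epithelial libraries, so these calls describe the difference. Neither receptor was tested where the Foxl1 positive libraries were not in the fit. The lower groups of the receptor calls differ in depth, since 3 counts correspond to 0.0963 CPM over the Foxl1 negative libraries, 0.0188 CPM over the Lgr5 positive libraries and 0.0379 CPM over differentiated epithelium.

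**Figure D5:**
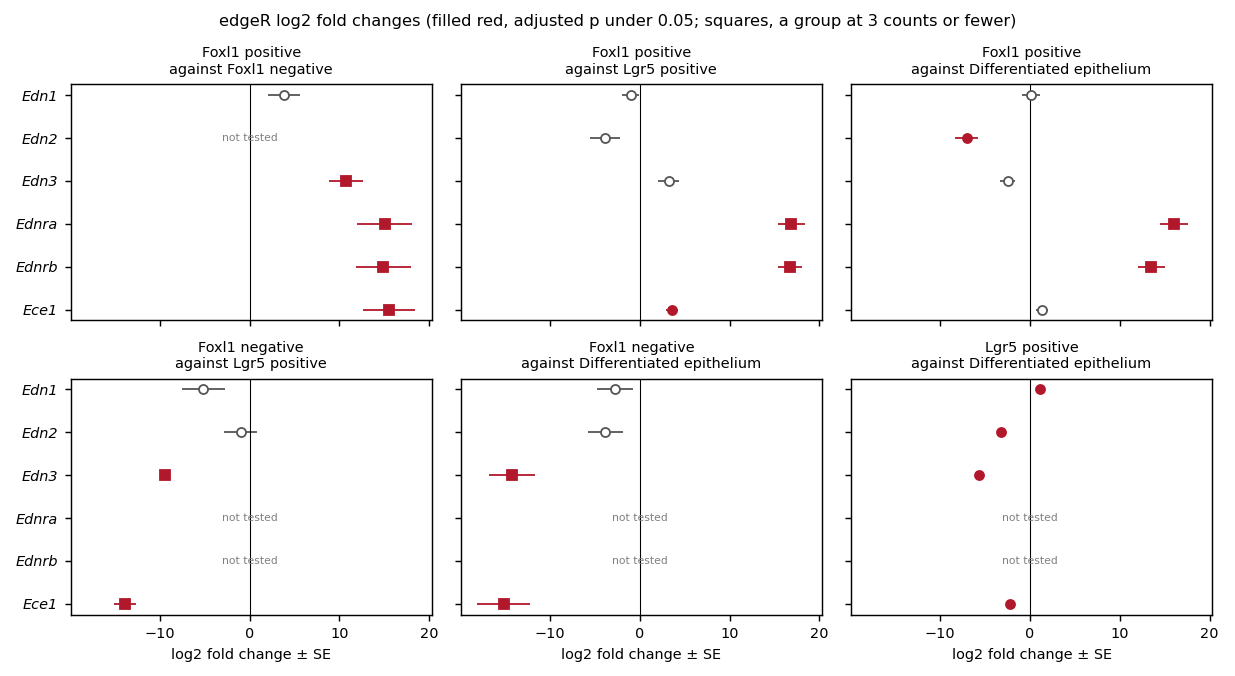
Log2 fold change ± SE from edgeR for each endothelin gene in the 6 comparisons, filled red where the adjusted p was under 0.05, with squares where 1 of the groups had 3 counts or fewer. The receptors lie far to the right in the 3 comparisons of Foxl1 positive cells (13.5 to 16.9), and Edn2 lies to the left in each of the 5 comparisons in which it was tested.

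Other genes of endothelin processing and breakdown were counted as a list, of which 7 of 8 were in the table. In Foxl1 positive against Foxl1 negative cells 2 of 5 tested were higher and 0 lower, where 42.2% of all genes tested were higher (median log2 difference 6.21, against 3.47 over all genes tested), namely the proprotein convertases Pcsk6 (9.62 ± 2.35, adjusted p = 0.0135) and Pcsk5 (14.1 ± 3.24, 0.0154). Pcsk5 had no count in Foxl1 negative cells, and each gene tested without one was called, so its call adds nothing to the counts. Pcsk6 passed the filter there only through the Foxl1 positive libraries, so its fit describes the difference. Against Lgr5 positive cells 1 of 6 was higher and 0 lower, where 4.84% of all genes were higher (median 1.46, against 0.06), which was Pcsk6 at 86.7 ± 37.5 against 2.26 ± 0.417 CPM (adjusted p = 0.0205, edgeR). Against differentiated epithelium 0 of 6 were called in edgeR in either direction (median -0.54, against 0.32), the smallest adjusted p being that of Pcsk7 (0.0545). Between the epithelial groups 1 of 6 was higher in Lgr5 positive cells and 5 lower, where 34.4% and 31.9% of all genes were (median -3.39, against 0.12). The metalloprotease Mme (neprilysin), which degrades endothelins, stood at 29.0 ± 15.5 CPM in Lgr5 positive cells and 2196 ± 1154 CPM in differentiated epithelium (-6.26 ± 0.60, adjusted p = 5.97e-05), and Furin, which makes the first cut of the precursor, at 28.3 ± 5.94 and 331 ± 109 CPM (-3.56 ± 0.37, 8.44e-05). Ece2, a second converting enzyme, was the 1 called higher, at 17.6 ± 3.82 against 2.36 ± 0.449 CPM. Differentiated epithelium thus held more transcript of Edn2, Edn3, Ece1, Furin and Mme than Lgr5 positive cells. In Foxl1 negative cells 3 of 6 were lower than in Lgr5 positive cells and 3 of 6 lower than in differentiated epithelium, where 47.3% and 42.1% of all genes were.

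Of 22 genes of receptor coupling (G protein alpha subunits, phospholipase C beta, inositol trisphosphate receptors, kinases and arrestins), 21 were tested in each comparison that involved Foxl1 positive cells. Against Foxl1 negative cells 2 of 21 were higher and 0 lower, below the 42.2% of all genes that were higher (median log2 difference 3.04, against 3.47 over all genes): Plcb4, a phospholipase C, at 46.1 ± 38.7 against 0.0439 ± 0.0760 CPM (adjusted p = 0.0125), and Gnai1, an inhibitory G protein subunit, at 189 ± 35.8 CPM against no count (adjusted p = 0.0140). Each gene tested without a count in Foxl1 negative cells was called, so the Gnai1 call adds nothing to the counts. Against Lgr5 positive cells 2 of 21 were higher and 0 lower, where 4.84% of all genes were higher (median 1.51, against 0.06): Mylk, the myosin light chain kinase of smooth muscle contraction, at 597 ± 82.1 against 37.0 ± 1.91 CPM (4.16 ± 0.69, adjusted p = 0.0261), and the calcium release channel Itpr1 at 180 ± 41.1 against 24.2 ± 3.08 CPM (3.06 ± 0.60, 0.0386). Against differentiated epithelium 3 of 21 were higher and 2 lower, where 10.6% and 7.19% of all genes were (median 0.54, against 0.32). Gnai1 (8.67 ± 0.87, adjusted p = 0.0122) and Plcb4 (6.89 ± 1.21, 0.0214) were among the higher, and Gna11, a subunit of the Gq class through which both receptors signal, was lower at 173 ± 117 against 1987 ± 716 CPM (-3.39 ± 0.87, adjusted p = 0.0445). Here, as against Foxl1 negative cells, Gnai1 and Plcb4 passed the filter only through the Foxl1 positive libraries, so their fits describe the difference. The 2 lower calls were lost with total counts in place of TMM scaling. Between the epithelial groups 2 of 21 were higher in Lgr5 positive cells and 11 lower, where 34.4% and 31.9% of all genes were (median -1.05, against 0.12), with total counts 7 higher and 6 lower. Mylk (-3.88 ± 0.31, adjusted p = 3.20e-05), Gna11 (-4.41 ± 0.42, 5.65e-05) and Arrb1, a beta-arrestin (-2.89 ± 0.29, 7.30e-05), led the lower calls. In Foxl1 negative cells 1 of 21 was lower than in Lgr5 positive cells, where 47.3% of all genes were, and 0 of 19 differed from differentiated epithelium in edgeR.

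Genes that act with Edn3 and Ednrb in the enteric neural crest were few among those tested. Against Foxl1 negative cells 2 of 4 tested were higher and 0 lower, where 42.2% of all genes were higher (median log2 difference 8.31, against 3.47 over all genes): Gdnf, a growth factor for crest cells, at 32.7 ± 22.4 CPM against no count (adjusted p = 0.0116), and the transcription factor Tbx3 at 127 ± 81.4 CPM against no count (0.0151). Each gene tested without a count in Foxl1 negative cells was called, so these calls add nothing to the counts. Gdnf had no count in the epithelial groups either and was called higher against both, with adjusted p of 0.0226 against Lgr5 positive cells and 0.0166 against differentiated epithelium. The transcription factor Zeb2, at 328 ± 203 CPM in Foxl1 positive cells, had no count in Lgr5 positive cells and 0.308 ± 0.211 CPM in differentiated epithelium, and was also called against both (adjusted p of 0.0156 and 0.0139). These calls of Gdnf and Zeb2 made up 2 of 7 and 2 of 6 tested, with 0 lower, where 4.84% and 10.6% of all genes were higher (medians 4.61 and 5.07, against 0.06 and 0.32). Among genes without a count in the second group the shares called were 33.8% and 52.2%. Against either epithelial group Gdnf and Zeb2 passed the filter only through the Foxl1 positive libraries, so these fits describe the difference. The crest marker Sox10 was not called (0.959 ± 0.879 CPM in Foxl1 positive cells and no count in the other groups). Between the epithelial groups 1 of 3 was higher in Lgr5 positive cells and 2 lower (median -2.49, against 0.12), where 34.4% and 31.9% of all genes were. Foxl1 negative cells were lower for 2 of 3 against Lgr5 positive cells and 1 of 2 against differentiated epithelium, where 47.3% and 42.1% of all genes were lower.

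A list of 9 genes tied to endothelin in pigment cells and vessels gave 4 of 8 higher and 0 lower against Foxl1 negative cells, where 42.2% of all genes were higher (median log2 difference 4.93, against 3.47). These were Mitf (4.07 ± 2.47 CPM, adjusted p = 0.0116), the prostaglandin synthase Ptgs2 (16.7 ± 11.6 CPM, 0.0116), Kitl (94.9 ± 101 CPM, 0.0180) and Agt (0.0258), each without a count in Foxl1 negative cells. Each gene tested without a count there was called, so these 4 calls add nothing to the counts. Against Lgr5 positive cells 0 of 9 were called in edgeR (median 2.86, against 0.06), Nos3 having the smallest adjusted p (0.0699). Against differentiated epithelium 3 of 9 were higher and 0 lower, where 10.6% of all genes were higher (median 4.18, against 0.32): the endothelial nitric oxide synthase Nos3 at 11.03 ± 9.11 against 0.0373 ± 0.0153 CPM (adjusted p = 0.0279), Mitf (0.0426) and Ptgs2 (0.0489). All 3 passed the filter only through the Foxl1 positive libraries, so these fits describe the difference. Nos3 is an endothelial gene, and the endothelial markers given above with the receptors were counted in the same libraries. Between the epithelial groups 4 of 7 were higher in Lgr5 positive cells and 0 lower, where 34.4% and 31.9% of all genes were (median 1.13, against 0.12), led by Kit (78.7 ± 39.5 against 10.6 ± 0.877 CPM, adjusted p = 0.000443). In Foxl1 negative cells 2 of 5 were lower against either epithelial group, where 47.3% and 42.1% of all genes were. With all 10 libraries in 1 edgeR fit, 0 genes of these 4 lists were called between Foxl1 positive cells and either epithelial group or between the epithelial groups. None of the 14683 genes tested in that fit was called in these comparisons. With the replicate number as a block 0 genes of the lists were called between Foxl1 positive and Foxl1 negative cells, and none of all 11204 tested.

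Genes with the most similar profile to each endothelin gene were found by the root mean square difference of log2(CPM + 1), centred on each gene, over the 10 libraries. Abcc9, a potassium channel subunit and one of the pericyte markers, was nearest to Ednra, with a difference of 0.128, at 523, 281 and 239 CPM in Foxl1 positive replicates 1, 2 and 3. The other pericyte markers (Rgs5, Pdgfrb, Cspg4 and Kcnj8) were highest in Foxl1 positive replicate 3, where Ednra and Abcc9 were lowest among these libraries. Bmp4 (0.410), a bone morphogenetic protein, and Tns1 (0.471), a tensin of cell adhesions, followed Abcc9 in nearness to Ednra. Bmp5, one of the Foxl1 mesenchyme markers, was nearest to Ednrb (0.235, at 194, 256 and 308 CPM in the same libraries), followed by Tns1 (0.372) and Scube1 (0.401). The receptors themselves differed from each other by 0.687, so these genes lay nearer to each receptor than the other receptor did. Nearest to Edn3 were Solh (0.568), Plcd1 (0.596) and Fam20a (0.630), and nearest to Edn2 were Cyp2j6 (0.683), Acad12 (0.688) and Ddc (0.728). Nearest to Edn1 were Cbwd1 (0.439), Btf3l4 (0.513) and Pkn3 (0.561), and nearest to Ece1 were Mtap4 (0.354), Pbxip1 (0.534) and Dag1 (0.567). The ligands differed from each other by 2.04 to 2.22, from Ece1 by 2.24 (Edn3), 2.78 (Edn1) and 3.81 (Edn2), and from the receptors by 3.72 to 5.03, while the receptors differed from Ece1 by 3.22 (Ednra) and 3.19 (Ednrb). These distances describe 10 libraries that share groups and differ in depth.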

How the data were processed

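RNA was sequenced from sorted mouse cells (10 libraries, 4 groups). Cells freed by enzymes were sorted and their RNA isolated on columns, per the labels' protocols. The counts that the authors deposited are raw whole numbers for 24082 transcripts, and their FPKM values cover 29510 transcripts. Per the submitters' processing notes, CASAVA 1.8.2, edgeR and genome build mm9 were used. Aligner, counter, annotation and strand use were not given in the sources used here. Without strand, reads of a gene and of its antisense partner cannot be told apart. Counts divided by FPKM gave for each library a size that differed from its total, so folds differ between the scales.

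Counts of representative transcripts were scaled by TMM and tested with edgeR 4.0.16 in R 4.3.3 (filterByExpr, robust glmQLFit, glmQLFTest, 2-sided, Benjamini-Hochberg adjustment over all genes tested, threshold 0.05) with the libraries of the 2 groups compared, since the spread differed between groups. Alternatives were DESeq2 1.42.0, limma 3.58.1 (voom, and log2(FPKM + 1) or log2(FPKM + 0.1) with and without a filter on a mean FPKM of 0.1), other scalings, filters, transcripts and sets of libraries, thinning to the smallest total, and the replicate number as a block. The tests were checked on simulated data with the same spread in every library. That check does not cover groups that differ in spread, or changes from no count. Group levels are means ± SD of CPM. The level that 3 counts would give is the floor for a count of 0, and it covers counting error only, because reads were counted and not molecules. Replicates differed from each other with a chi-square of at least 147.6 per degree of freedom, so each was counted separately. The members and lists were chosen with earlier results of these data known. Named genes are the 6 members, up to 3 of each list with the smallest p in a comparison, and the 3 genes nearest to each member in profile with a mean of at least 5 CPM (predicted and clone-named genes left out). Sequences came from GENCODE M21 transcripts (GRCm38) matched by RefSeq identifier, and their coordinates are not those of mm9.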

Additional observations from a re-analysis of the deposited data

How the results depend on the processing

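Of the fold changes of endothelin genes recomputed under other settings, 359 kept their direction and side of the threshold, 32 lost a call, 21 gained one and 5 changed direction, and on leaving out 1 library 109, 28, 7 and 2 did. Those that changed direction were all of Edn1 between Foxl1 positive cells and differentiated epithelium (0.12, not called): -0.13 with the replicate block, -0.19 with limma on log2(FPKM + 1), with or without a filter, -0.40 with log2(FPKM + 0.1), -0.28 with library sizes implied by FPKM, -0.23 without Foxl1 positive replicate 3 and -0.18 without differentiated epithelium replicate 2 (range on leaving out 1 library -0.23 to 0.39). Calls between Foxl1 positive and Foxl1 negative cells (4) fell to 0 with the replicate block (adjusted p 0.0914 for Ednra, Ednrb and Ece1), which called none of the 11204 genes tested. The deviations of same-numbered libraries of these groups from their group means had correlations of 0.0413, 9.46e-05 and 0.0526. With few genes counted in the Foxl1 negative libraries, these values cannot show whether such pairs share an animal. With all 10 libraries in 1 fit the calls of Foxl1 positive cells against Lgr5 positive cells (3) and differentiated epithelium (3) and between the epithelial groups (4) each fell to 0. That fit called none of the 14683 genes tested in these comparisons. The calls between the epithelial groups fell to 2 in a fit of 7 libraries without the Foxl1 negative group. Foxl1 negative against Lgr5 positive cells (2) gave 0 with limma-voom, 0 with the block and 1 when thinned. Limma-voom and the block called none of the 12568 genes tested there. Foxl1 negative cells against differentiated epithelium (2) gave 0 with no filter, the block or thinning, 1 with median-of-ratios scaling, a filter of 1 CPM or total counts, and 4 with limma on log2(FPKM + 1), filtered or not. In this comparison too the block called no gene at all. Leaving out 1 library gave 4 to 5, 0 to 3, 0 to 4, 0 to 4, 0 to 3 and 3 to 4 calls in the comparisons in the order of Foxl1 positive against Foxl1 negative, Lgr5 positive and differentiated, Foxl1 negative against Lgr5 positive and differentiated, and Lgr5 positive against differentiated. The lone library of a group is then assumed to vary like the others. Each range that reaches 0 includes fits that called no gene at all. The total-count, FPKM-size and 7-library fits were chosen after seeing the data. The causes of these changes were not tested. Scaling by library sizes implied by FPKM moved the median log2 difference of all genes from 0.06 to -1.01 against Lgr5 positive cells, and the share of calls that were higher from 84.6% to 36.1%. Against differentiated epithelium that share was 59.5%, 86.2% with total counts and 43.7% with FPKM sizes, and between the epithelial groups 51.9%, 75.4% and 64.3%. Foxl1 negative replicate 3 held 13440838 counts, more than any Foxl1 positive library, in 5966 genes.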
